A study of Mus musculus with 4 samples.

Results

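The IGF1 axis was read through 8 genes, namely the ligand gene Igf1, its receptor gene Igf1r and the binding protein genes Igfbp2, Igfbp3, Igfbp4, Igfbp5, Igfbp6 and Igfbp7. Every exon of these genes with a value was taken, which gave 75 exons of the 234718 listed, out of 110 exons that GENCODE release M21 annotates for the 8 genes. The RNA came from 3 mouse cultures with 1 library each. These were wild-type embryonic fibroblasts at passage 3, labelled and here called MEF, untreated Mitf knock-in embryonic fibroblasts at passage 5, called Dox (-), and the same knock-in fibroblasts at passage 5 after 6 days of Dox, called Dox (+). In the knock-in cells a Dox-responsive element at the Col1a1 locus drives the melanocyte form of Mitf, and the transactivator M2rtTA is made from the ROSA26 locus whether or not Dox is given, and the cells also carry an mCherry transgene. The knock-in fibroblasts were grown from mid-gestation chimeric embryos made with 1 targeted clone of embryonic stem cells, and, per the study, mCherry and a puromycin resistance cassette served to purify the transgenic cells from the host's. The share of host cells left was not tested. Primary mouse melanocytes, labelled PMel, were not analysed here. The values under the label MEF are not the ones that the study's own gene table prints for MEFs, so MEF stands below for the library with that label and its identity is uncertain.

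IGF1 is a small secreted growth factor that binds the receptor tyrosine kinase IGF1R and signals mainly through the PI3K-AKT and MAP kinase routes. In fluids and in culture most of it is held by IGF binding proteins, which lengthen its life, carry it and can either hinder or favour its access to the receptor. Proteases such as PAPP-A cut some binding proteins and set the ligand free. Fibroblasts secrete several binding proteins, and macrophages are a well known source of IGF1.

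The deposited values were RPKM per exon, and the level of a gene was the RPKM of its highest exon, as in the study's methods. A gene was called where the pair of libraries differed more than 4-fold and the higher value exceeded 10 RPKM. With 1 library per condition there was no replicate check and no test, and the 95% intervals below cover counting error only. Read numbers were recovered from RPKM at a depth of 44000000 to 45000000 reads per library. Mitf had 1.52 RPKM in MEF, 30.8 RPKM in Dox (-) and 1544 RPKM in Dox (+). It was highest in Dox (+), the library labelled with Dox, while the labels give no order between MEF and Dox (-). The median gene above 10 RPKM was 0.23 higher on the log2 scale in Dox (+) than in Dox (-), 0.27 higher in Dox (+) than in MEF, and 0.01 higher in Dox (-) than in MEF. All 12 fibroblast markers were above 1 RPKM in each library. Of 16 macrophage markers 15 were highest in Dox (-), and the summed level of the 16 was 18809 RPKM there, 962 RPKM in Dox (+) and 243 RPKM in MEF. The exception was Cx3cr1, with 178 RPKM in MEF, 194 RPKM in Dox (-) and 316 RPKM in Dox (+). Cx3cr1 was thus most of the sum in MEF, and Lyz2, with 10820 RPKM, most of that in Dox (-). Ptprc and Aif1 were under 1 RPKM in Dox (+), and 8 of the 16 were under 1 RPKM in MEF. The other marker lists gave summed levels, in the order MEF, Dox (-) and Dox (+), of 5.21, 13.8 and 278 RPKM for 10 melanocyte genes, 9.37, 17.8 and 5.78 RPKM for 6 endothelial genes, 19954, 21780 and 50218 RPKM for 5 smooth muscle genes, and 61.2, 9.54 and 33.6 RPKM for 6 epithelial genes. Coverage along transcripts also differed between the libraries. Over 6014 genes, the ratio of Dox (+) to Dox (-) was lower on the last exon than on the first by a median of 0.45 on the log2 scale, and lower in 87.7% of the genes.

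Coding exons of 6 members are printed here because the deposited unit is the exon and the binding proteins can be compared through them. For Igf1 and Igfbp4 the highest exon, which gives the level of the gene, is another one. They come from GENCODE transcripts on mm10, run 5′ to 3′ on the strand of the gene, and capitals mark the in-frame cysteine codons. The exon of Igf1, at chr10:87864731-87864887, is coding, is part of all 8 transcripts annotated for the gene and begins the hormone itself. The others are the third exons of 5 binding protein genes, from chr1:72849564-72849704 for Igfbp2, chr11:7209459-7209578 for Igfbp3, chr11:99049094-99049228 for Igfbp4, chr1:72863143-72863262 for Igfbp5 and chr15:102148102-102148224 for Igfbp6.
Igf1: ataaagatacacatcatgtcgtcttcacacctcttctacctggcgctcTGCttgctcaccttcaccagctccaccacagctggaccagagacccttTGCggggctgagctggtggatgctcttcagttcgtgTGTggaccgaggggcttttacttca
Igfbp2: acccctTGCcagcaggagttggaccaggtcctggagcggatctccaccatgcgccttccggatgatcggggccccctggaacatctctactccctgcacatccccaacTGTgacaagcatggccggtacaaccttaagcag
Igfbp3: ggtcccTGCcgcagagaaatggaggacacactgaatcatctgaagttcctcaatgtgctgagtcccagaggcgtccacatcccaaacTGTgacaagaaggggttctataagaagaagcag
Igfbp4: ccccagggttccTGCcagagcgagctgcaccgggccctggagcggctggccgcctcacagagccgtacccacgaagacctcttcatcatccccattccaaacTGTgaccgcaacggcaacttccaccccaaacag
Igfbp5: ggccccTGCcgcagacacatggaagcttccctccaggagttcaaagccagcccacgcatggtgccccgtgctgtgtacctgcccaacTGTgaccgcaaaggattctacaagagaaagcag
Igfbp6: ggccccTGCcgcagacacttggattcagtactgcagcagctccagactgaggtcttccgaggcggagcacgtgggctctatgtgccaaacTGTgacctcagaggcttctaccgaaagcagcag

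Each of the 5 binding protein exons holds 2 cysteine codons, 1 near its start and 1 before a gac codon towards its end. Aligned in pairs, they shared between 51.5% of positions, for Igfbp3 and Igfbp4, and 65.0%, for Igfbp5 and Igfbp6. The exons of Igfbp3 and Igfbp5, both 120 bp long, shared 60.8%. This exon was the highest of its gene in every library for Igfbp2, Igfbp3 and Igfbp6, and in Dox (-) and Dox (+) for Igfbp5.

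**Figure D1:**
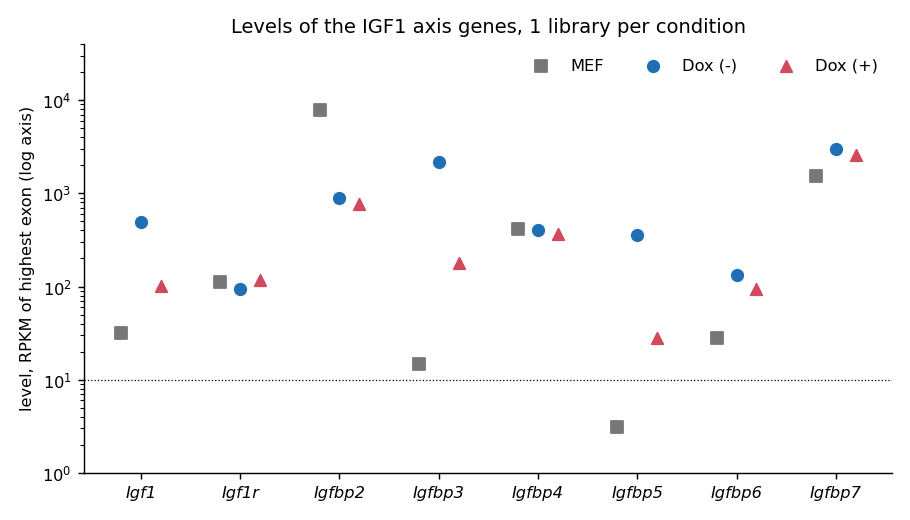
Level of each gene in RPKM of its highest exon on a log axis, with 1 point per library, grey squares for MEF, blue circles for Dox (-) and red triangles for Dox (+). The dotted line marks 10 RPKM. Igf1, Igfbp3, Igfbp5, Igfbp6 and Igfbp7 were lowest in MEF and highest in Dox (-), Igfbp2 was highest in MEF at 7741 RPKM, and the points of Igf1r and Igfbp4 lay close together.

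Igf1 (chr10:87858265-87937042, plus strand) had its lowest level in MEF and its highest in untreated knock-in fibroblasts. Its highest exon had 31.4 RPKM in MEF, 488 RPKM in Dox (-) and 100.3 RPKM in Dox (+). Dox (+) was thus 4.87-fold lower than Dox (-), which itself was 15.5-fold higher than MEF. Summed over 8 exons that do not overlap, the difference between Dox (+) and Dox (-) was 9.01-fold (95% counting interval 8.62 to 9.43), from 2174 and 20044 reads, with 973 reads in MEF. This exon is 29 bp long and had the same 41, 637 and 128 reads as the exon of 150 bp that contains it, so its RPKM is raised by its short length. On the shared coding exon printed above the values were 14.3, 219 and 35.5 RPKM, from 101 reads in MEF, 1547 in Dox (-) and 245 in Dox (+). There Dox (+) was 6.17-fold lower than Dox (-) (5.39 to 7.09) and 2.48-fold higher than MEF (1.96 to 3.16). Of 16 macrophage markers, 15 were called in the same direction as Igf1 both between Dox (+) and Dox (-) and between Dox (-) and MEF. Of 12 fibroblast markers, 5 were called in the direction of Igf1 in the first of these comparisons and 5 in the second, with Lum and Postn in both. Uncalled differences in the opposite direction were seen for 4 of the 12 in the first and 2 in the second. Over all genes 5.41% were called lower in the first and 8.26% higher in the second. The part of either cell type in the levels of Igf1 was not tested. Fewer cells of a type and less RNA per cell cannot be told apart in these bulk libraries.

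Igf1r (chr7:67952827-68233668, plus strand), the receptor, was at a similar level in the 3 libraries. Its highest exon had 113 RPKM in MEF, 94.2 RPKM in Dox (-) and 117 RPKM in Dox (+). Summed over its 21 exons the gene had 14833, 14246 and 16013 reads. Dox (+) exceeded Dox (-) by 1.15-fold in these reads (1.12 to 1.18), and the median gene differed by 1.17-fold on its highest exon. Against MEF the summed reads were 1.04-fold lower in Dox (-) and 1.10-fold higher in Dox (+). The first exon alone was 1.96-fold higher in Dox (-) and 3.85-fold higher in Dox (+) than in MEF. The order of the 3 libraries is not read as a difference of the gene.

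Igfbp3 (chr11:7206086-7213923, minus strand), the main carrier of IGF in blood and a product of many fibroblasts, showed the widest range of the members. It had 14.8 RPKM in MEF, 2173 RPKM in Dox (-) and 180.3 RPKM in Dox (+), from 80, 11735 and 952 reads on the exon printed above. The gene was 147-fold higher in Dox (-) than in MEF and 12.1-fold lower in Dox (+) than in Dox (-). Dox (+) was 12.2-fold above MEF. Over its 5 exons that do not overlap, Dox (+) was 12.9-fold lower than Dox (-) (12.6 to 13.2), from 7224 and 95255 reads, with 516 reads in MEF.

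Igfbp5 (chr1:72857932-72874884, minus strand), which binds both IGF and extracellular matrix, had the same order of libraries. It had 3.13 RPKM in MEF, 353 RPKM in Dox (-) and 28.2 RPKM in Dox (+). On the highest exon of each library the difference between Dox (-) and MEF was 113-fold, and Dox (+) was 12.5-fold lower than Dox (-) and 9.01-fold higher than MEF. Dox (-) exceeded MEF by 78.1-fold in summed reads (72.4 to 84.2), and by 71.9-fold to 281-fold on single exons. In MEF the level came from the last exon, of 4577 bp with 645 reads, while the exon of 120 bp had 14 reads there against 1907 in Dox (-) and 149 in Dox (+). Summed over 4 exons the reads were 696, 54328 and 3201, so that Dox (+) was 16.6-fold lower than Dox (-) (16.0 to 17.2) and 4.70-fold higher than MEF (4.33 to 5.11). The excess of Dox (+) over MEF thus depended on the exons used, between 4.09-fold on the last exon and 22.0-fold on the second. In this comparison the ratio was lower on the last exon than on the first in 89.2% of 6014 genes, by a median of 0.74 on the log2 scale, and its part in the range over the exons of Igfbp5 was not tested.

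Igfbp2 (chr1:72824503-72852474, plus strand), a binding protein typical of fetal tissues, was highest in MEF and lowest in Dox (+). It was the most abundant member in MEF with 7741 RPKM, against 896 RPKM in Dox (-) and 776 RPKM in Dox (+). MEF was 8.64-fold above Dox (-) and 9.97-fold above Dox (+). The knock-in libraries differed by 1.15-fold, and relative to the median gene Igfbp2 was 0.43 lower in Dox (+) on the log2 scale. All 7 listed exons of Igfbp2 were more than 4-fold higher in MEF than in either knock-in library. Its start was read from the first exon of the longer form and from an alternative first exon 3′ of it. The share of the reads on these that fell on the longer form was 51.3% in MEF (exact binomial interval 50.8% to 51.8%), 51.1% in Dox (-) (49.7% to 52.6%) and 52.1% in Dox (+) (50.6% to 53.6%), so no difference in start use was detectable at this depth.

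Igfbp6 (chr15:102144362-102149511, plus strand), which prefers IGF2 over IGF1, had 27.8 RPKM in MEF, 134 RPKM in Dox (-) and 94.2 RPKM in Dox (+). In summed reads it was 4.64-fold higher in Dox (-) than in MEF (4.21 to 5.12), not far past the threshold, and on the highest exon it was 4.80-fold higher. In Dox (+) it was 3.39-fold higher than in MEF, short of the threshold. Between the knock-in libraries it was 1.42-fold lower in Dox (+). Igfbp7 (chr5:77349240-77408041, minus strand), a relative that binds IGF weakly and is found in vessel walls and matrix, was abundant throughout with 1535 RPKM in MEF, 2984 RPKM in Dox (-) and 2563 RPKM in Dox (+). Its difference between Dox (-) and MEF was 1.94-fold and that between the knock-in libraries 1.16-fold. The end of Polr2b, on the other strand, overlaps the last exon of Igfbp7, and since the use of strand in counting is not stated their reads there cannot be told apart. Igfbp4 (chr11:99041244-99054392, plus strand), a binding protein that holds IGF until it is cut by PAPP-A, was nearly level with 414 RPKM in MEF, 407 RPKM in Dox (-) and 369 RPKM in Dox (+). The largest of its 3 differences was 1.12-fold on the highest exon and 1.42-fold in summed reads, where MEF exceeded Dox (+) (1.39 to 1.45).

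The make-up of binding protein RNA differed between the libraries. Summed over the 6 binding protein genes the level was 9735 RPKM in MEF, 6947 RPKM in Dox (-) and 4011 RPKM in Dox (+). In MEF 79.5% of this was Igfbp2 and 15.8% Igfbp7. In Dox (-) Igfbp7 made 43.0%, Igfbp3 31.3% and Igfbp2 12.9%. In Dox (+) Igfbp7 made 63.9% and Igfbp2 19.3%, while Igfbp3 made 4.49%. Igfbp5 made 5.08% in Dox (-) and under 1% in both other libraries. With RPKM from reads summed over exons in place of the highest exon, Igfbp2 made 80.1% in MEF, and Igfbp7 made 53.8% in Dox (-) and 70.8% in Dox (+). By that measure the share of Igfbp3 was lower, at 19.97% in Dox (-) and 2.43% in Dox (+).

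**Figure D2:**
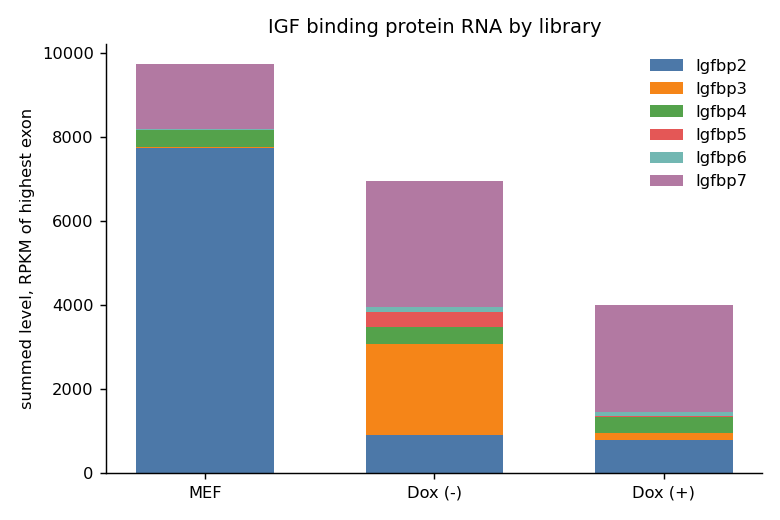
Summed level of the 6 binding protein genes in RPKM of their highest exons, stacked by gene, for MEF, Dox (-) and Dox (+), with 1 library each. Igfbp2 fills 79.5% of the bar of MEF, while Igfbp3 makes 31.3% of the bar of Dox (-), or 19.97% where reads are summed over exons, and under 5% of the others.

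The comparison of Dox (+) with Dox (-) sets the cells with 6 days of Dox beside the same kind of cells without it. Of the 8 members 3 were called, all lower in Dox (+), against 7.05% of 13307 genes called in either direction and 5.41% called lower. These were Igf1, Igfbp3 and Igfbp5. The log2 fold changes were -2.27 for Igf1, -3.58 for Igfbp3 and -3.60 for Igfbp5, and relative to the median gene they were -2.50, -3.81 and -3.83. The other 5 lay between -0.50, for Igfbp6, and 0.32, for Igf1r. The median of the 8 was -0.36, against 0.23 for all genes. The fibroblast markers Col1a1, Col1a2, Col3a1, Lum and Postn were called lower as well, 5 of the 12, and 15 of the 16 macrophage markers. In the other direction, 4 fibroblast markers were higher in Dox (+) without being called. These were Vim (1.98-fold), Thy1 (1.79-fold), Prrx1 (1.41-fold) and Twist1 (1.13-fold). The part of either cell type in the lower values of Igf1, Igfbp3 and Igfbp5 was not tested.

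The comparison of Dox (-) with MEF sets untreated knock-in cells beside wild-type cells, which also differ in passage and in the embryos they came from. Of the 8 members 5 were called, against 9.47% of 13234 genes. Igf1, Igfbp3, Igfbp5 and Igfbp6 were higher in Dox (-), where the share of all genes was 8.26%, and Igfbp2 was lower, where it was 1.21%. The log2 fold changes were 3.92 for Igf1, 7.10 for Igfbp3, 6.42 for Igfbp5, 2.22 for Igfbp6 and -3.11 for Igfbp2. Igf1r at -0.26, Igfbp4 at -0.02 and Igfbp7 at 0.96 were not called. The median of the members was 1.59, against 0.01 for all genes. Of the 12 fibroblast markers 5 were called higher in Dox (-), namely Pdgfra, Dcn, Lum, Postn and Prrx1. Vim and Twist1 were lower there, by 1.98-fold and 1.60-fold, and were not called. Of the 16 macrophage markers 15 were called higher, with a median log2 fold change of 7.29 against 1.56 for the fibroblast markers. The part of either cell type in the higher values of Igf1, Igfbp3, Igfbp5 and Igfbp6 was not tested. Genotype, passage and culture cannot be told apart here.

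Dox (+) was also set beside MEF, and both knock-in comparisons share libraries with it. Of the 8 members 3 were called, against 9.95% of 12941 genes. Igfbp3 and Igfbp5 were higher in Dox (+), with 6.55% of all genes called higher, and Igfbp2 was lower, with 3.4% called lower. The log2 fold changes were 3.52, 2.82 and -3.32. Igf1 at 1.64 and Igfbp6 at 1.72 were short of 4-fold, and with a fold threshold of 2 both were called. In summed reads Igf1 was 2.29-fold higher in Dox (+) than in MEF (2.12 to 2.47), and Igfbp6 was 3.39-fold higher (3.07 to 3.76). Igf1, Igfbp3, Igfbp5, Igfbp6 and Igfbp7 thus lay between MEF and Dox (-) in Dox (+), and Igfbp2 was lower in Dox (+) than in MEF by about as much as in Dox (-).

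**Figure D3:**
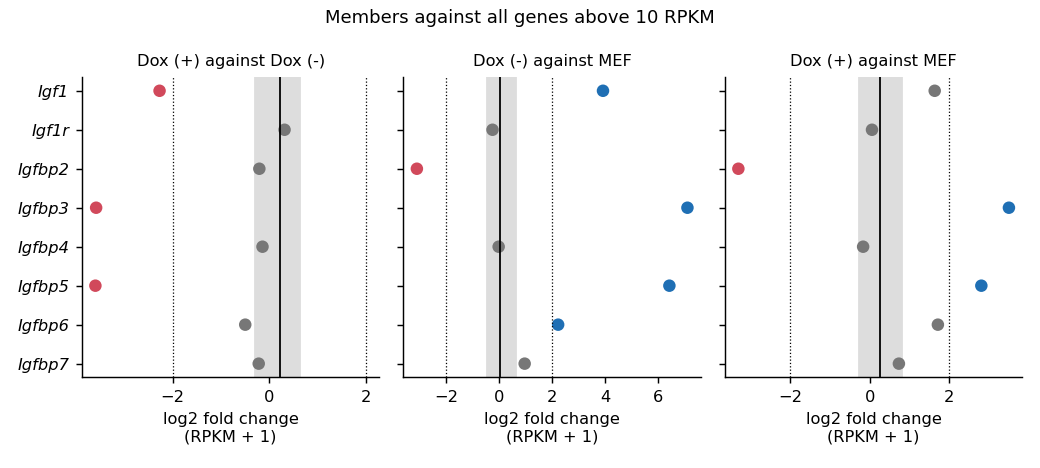
Log2 fold change of each gene after adding 1 RPKM, in the 3 comparisons. Red points were called lower, blue points higher and grey points were not called. The black line and the grey band give the median and the quartiles of all genes above 10 RPKM in that comparison, and dotted lines mark 4-fold. Igf1, Igfbp3 and Igfbp5, and by less the uncalled Igfbp6, lie left of the band in Dox (+) against Dox (-). The point of Igfbp2 lies left of it in both comparisons with MEF.

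Single exons were compared next, since a level taken from 1 exon could rest on it alone. Between Dox (+) and Dox (-), every exon of Igfbp3 (7 of 7) and of Igfbp5 (4 of 4) and 18 of 19 exons of Igf1 were more than 4-fold lower in Dox (+). The remaining exon of Igf1 had 15 reads in Dox (-) and 4 in Dox (+). The exons of Igfbp3 were between 8.73-fold and 13.7-fold lower, and those of Igfbp5 between 12.3-fold and 17.6-fold. No exon of the other 5 genes passed 4-fold. Of the 21 exons of Igf1r 20 had higher values in Dox (+), with ratios between 0.937 and 1.97, and the ratio of 1.97 was that of the first exon. In Dox (-) and Dox (+) the values of Igf1r on its first and last exons did not give whole reads with the annotated lengths, so the read numbers there are approximate. In 8 of 8 members the ratio of Dox (+) to Dox (-) was lower on the last exon than on the first, with log2 differences from -0.14 for Igfbp6 to -1.69 for Igf1, whose most 5′ exon is the one with 15 reads, in the direction that most genes showed. The part of this coverage difference in the fold changes was not tested.

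**Figure D4:**
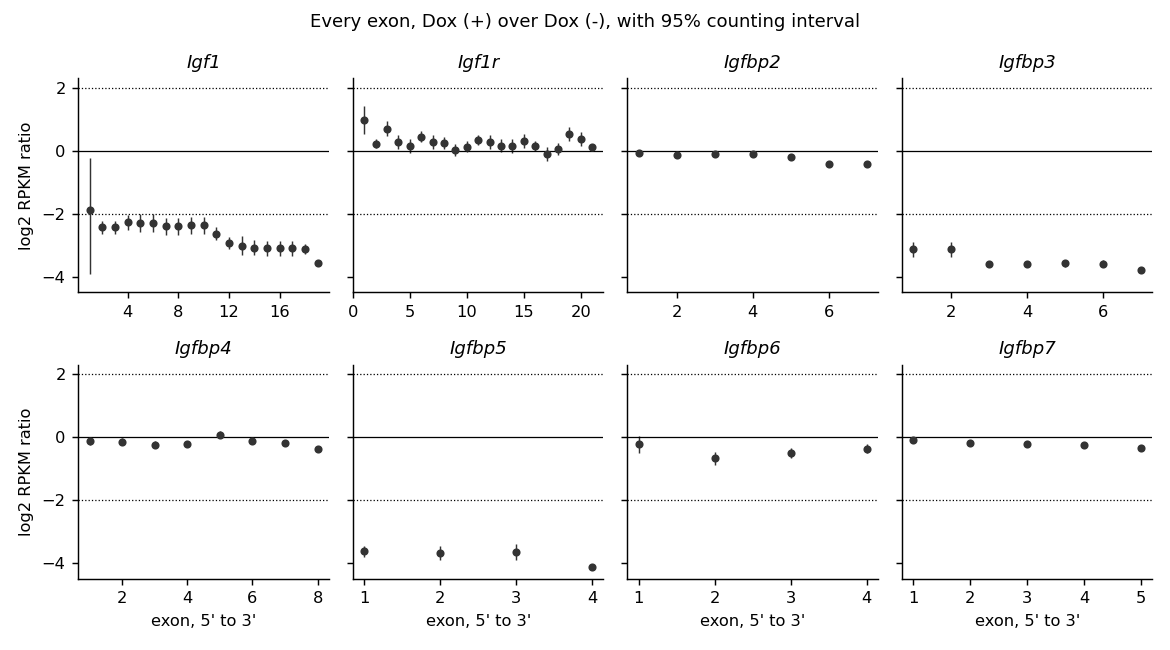
Log2 ratio of RPKM in Dox (+) to Dox (-) for every listed exon of each gene in 5′ to 3′ order, with the 95% counting interval. The solid line marks equal values and the dotted lines 4-fold. All points of Igfbp3 and Igfbp5 lie below the lower dotted line, and those of Igf1 lie lower towards the right, apart from the first.

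Along Igf1 the difference between Dox (-) and Dox (+) was larger towards the 3′ end. The gene has alternative leader exons, a shared coding exon and a last exon that in its long form is 6368 bp and mostly 3′ untranslated. The antisense gene Igf1os spans the leader region, but no exon of it overlaps an exon of Igf1. Of the reads on the long first leader exon (345 bp) and the long second one (1356 bp), the first took 68.3% in MEF (exact binomial interval 59.9% to 76.0%), 63.4% in Dox (-) (61.3% to 65.5%) and 62.9% in Dox (+) (57.8% to 67.8%). A change of leader was not detectable at this depth. The long last exon had 499 reads in MEF, 13237 in Dox (-) and 1097 in Dox (+). On it Dox (+) was 11.8-fold lower than Dox (-) (11.1 to 12.6), against 6.17-fold on the shared coding exon. Its first 221 bp were 8.51-fold lower (7.23 to 10.1) and the 6147 bp beyond them 12.4-fold lower (11.6 to 13.2). The log2 ratio of Dox (+) to Dox (-) on the long last exon thus differed from that on the shared exon by -0.93, where the last and first exons of the median gene differed by -0.45.

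Between Dox (-) and the library labelled MEF the last exon of Igf1 differed the other way from most genes. The long last exon was 26.5-fold higher in Dox (-) (24.3 to 29.1) and the shared coding exon 15.3-fold (12.5 to 18.9), a difference of 0.79 on the log2 scale. Its distal 6147 bp alone were 28.6-fold higher (26.0 to 31.7), a difference of 0.90 from the shared exon. The median gene had a difference of -0.27 between its last and first exon in this comparison. The RPKM of the long last exon was 0.122 of that of the shared exon in MEF, 0.211 in Dox (-) and 0.110 in Dox (+).

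**Figure D5:**
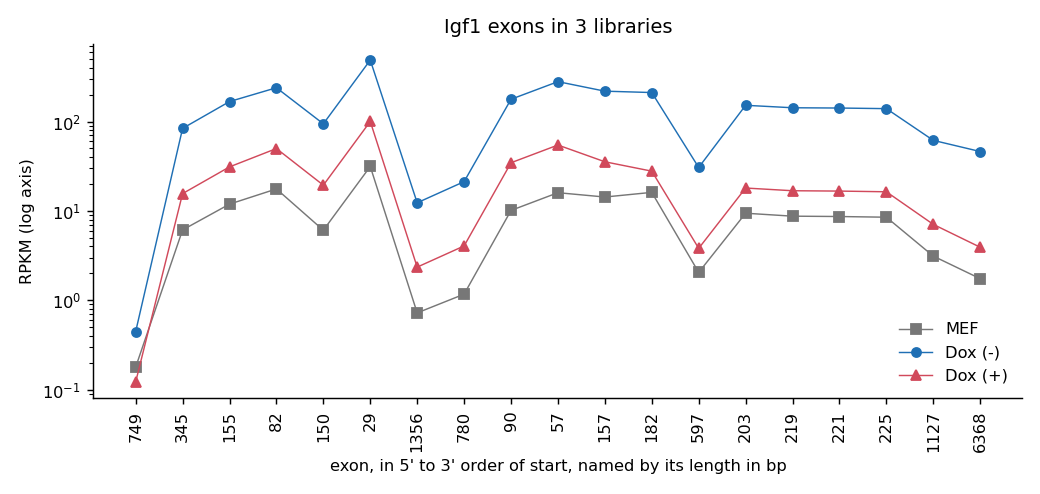
RPKM of the 19 listed exons of Igf1 on a log axis, in the order of their starts and named by length in bp, for MEF (grey squares), Dox (-) (blue circles) and Dox (+) (red triangles). Dox (-) is highest on every exon, and the distance from Dox (-) to Dox (+) is widest on the long last exon, at 11.8-fold.

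Other genes of the IGF axis were taken from a list of 67 genes. Between Dox (+) and Dox (-) 3 were called higher and 2 lower, of 62 above the threshold, against 1.64% of all genes called higher and 5.41% lower. The counts were 2 higher and 4 lower once each library was scaled to an equal median level. Igf2, the fetal IGF ligand, had 66.7 RPKM in MEF, 6022 RPKM in Dox (-) and 1653 RPKM in Dox (+), so that it was called higher in both knock-in libraries, while its 3.64-fold difference between them was not called. Igf2r, which clears IGF2 from the cell surface, had 411, 721 and 201 RPKM, and Insr, the insulin receptor, 15.0, 29.1 and 31.4 RPKM. Igf2r was 3.59-fold lower in Dox (+) than in Dox (-), short of the threshold like Igf2. With the libraries scaled to an equal median level, both Igf2 and Igf2r passed 4-fold in that comparison. Without that scaling none of the receptors was called in any comparison.

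Of 9 genes for proteases that cut binding proteins, or for their inhibitors, 2 were called higher in Dox (+) than in Dox (-) and 5 higher than in MEF, and none was called lower in either. Over all genes the shares called higher were 1.64% and 6.55%, and those called lower 5.41% and 3.4%. Htra3, a serine protease of the HTRA family, had 44.4 RPKM in MEF, 76.1 RPKM in Dox (-) and 623 RPKM in Dox (+), 8.19-fold above Dox (-). Pappa2, a metalloprotease that cuts IGFBP3 and IGFBP5, had 3.70, 3.76 and 32.2 RPKM. Htra1 had 1009, 1341 and 4375 RPKM and was called against MEF alone. Stc1 and Stc2, stanniocalcins that inhibit PAPP-A, had 0.524 and 7.76 RPKM in MEF, 8.39 and 10.6 RPKM in Dox (-), and 22.7 and 35.1 RPKM in Dox (+). Pappa itself had 50.9 RPKM in MEF, 254 RPKM in Dox (-) and 174 RPKM in Dox (+), and Adam12, another protease of IGFBP3 and IGFBP5, had 33.7, 185 and 96.0 RPKM, and both were called between Dox (-) and MEF.

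Of 6 genes for secreted proteins with an IGF binding protein domain, 1 was called higher and 1 lower in Dox (+) than in Dox (-). Over all genes 1.64% were called higher and 5.41% lower. Ccn3 had 161 RPKM in MEF, 739 RPKM in Dox (-) and 141 RPKM in Dox (+) and was called in both comparisons with Dox (-). Ccn2, the connective tissue growth factor, had 457, 1901 and 1904 RPKM. Ccn4 had 52.5, 288 and 228 RPKM, and Esm1 had 1.45, 8.57 and 38.0 RPKM. Ccn1 and Ccn5 were not called. In the growth hormone axis, Socs2 and Cish, feedback inhibitors that STAT5 induces, were higher in both knock-in libraries than in MEF. Socs2 had 1.52 RPKM in MEF and was 13.8-fold higher in Dox (-) and 16.0-fold higher in Dox (+), and Cish had 7.81 RPKM in MEF and was 5.03-fold and 5.75-fold higher, while Ghr, the growth hormone receptor, had 346, 489 and 811 RPKM and was not called.

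Inside the cell no gene of the main signalling lists was called, although several differed by less than 4-fold. Deptor, of the list around mTOR, was 4.52-fold higher in Dox (-) than in MEF, with 6.99 and 1.55 RPKM, but stayed under 10 RPKM. None of the 9 adaptor genes, the 13 genes of the PI3K-AKT route and the 10 genes around mTOR was called in any of the 3 comparisons. Over all genes 7.05% were called between Dox (+) and Dox (-). The shares were 9.47% between Dox (-) and MEF and 9.95% between Dox (+) and MEF. Irs1, the docking protein of the receptor, had 12.3 RPKM in MEF, 18.6 RPKM in Dox (-) and 5.80 RPKM in Dox (+), 3.21-fold lower than in Dox (-). Eif4ebp1, a translation inhibitor that mTOR phosphorylates, had 412, 203 and 722 RPKM and exceeded its level in Dox (-) by 3.56-fold in Dox (+). Pdpk1, the kinase that activates AKT, had 19.6, 55.6 and 76.6 RPKM and was 3.91-fold higher in Dox (+) than in MEF. Akt1 had 965, 1241 and 1750 RPKM. Of 8 FOXO factors and targets 1 was called, Sesn1, with 34.4, 51.5 and 12.9 RPKM, lower in Dox (+) than in Dox (-). At 4.003-fold Sesn1 was barely past the threshold. Over all genes 5.41% were called lower in that comparison. Between Dox (-) and MEF 8 of the 59 list genes above the threshold were called higher and 0 lower, against 8.26% and 1.21% of all genes. Between Dox (+) and MEF 11 of 62 were called higher and 0 lower, against 6.55% and 3.4%.

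Because Mitf was the gene switched on, the promoters of the members were searched for the E-box that MITF binds. RefSeq promoters on GRCm38.p6, from 250 bases before to 50 after the start, were available for all 8 genes, 9 promoters in all. CATGTG, on either strand, was in 0 of the 9, against 14.2% of 32851 promoters. CACGTG, which reads the same on both strands, was in 1 of the 9, the upstream promoter of Igfbp2, against 7.15% of all promoters. This match lies 142 bases before the start, within chr1:72824326-72824355 on the plus strand, and is shown in capitals because it was the only one among the members.
Igfbp2 promoter: cgtgtgcacaagCACGTGccctcacgcaag
Igfbp2 was not called between Dox (+) and Dox (-). The absence of these letters from the other windows says nothing of sites elsewhere.

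Among 13587 genes above 10 RPKM in at least 1 library, the profiles nearest to each called member were listed by Euclidean distance between centred log2 values over the 3 libraries. The nearest to Igf1 were L1cam, Apod and Oas1g, at distances of 0.067 to 0.14. Igfbp5 was nearest to Lcp1, at 0.096, then to Clec4d and Wfdc17. Igfbp3 was nearest to Clec4d, at 0.49, then to Igfbp5, at 0.56, and to Lcp1. Lcp1 had 2.96 RPKM in MEF, 353 RPKM in Dox (-) and 25.6 RPKM in Dox (+). Igfbp2 was nearest to Duxbl3, Halr1 and Krt81, all under 30 RPKM in MEF, and Igfbp6 to H2-Q2, H2-Q1 and Pitpnc1. With 3 points per gene many genes can be this near.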

How the data were processed

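The authors prepared poly(A) RNA libraries and deposited exon RPKM values, which scale reads on an exon to its length and to the aligned reads. Per the study's methods and the submitters' processing notes, TopHat2 2.0.10 and bedtools were used on mm10. The methods keep exons of protein coding, pseudogene and lincRNA genes and, for later steps, those above an RPKM minimum, which the deposited list does not apply. Which rule gave the deposited list, and whether strand was used, are not given in the sources used here. Columns were assigned to libraries by name, and the number left unused because the name matched no label was 1. Of 234718 exon identifiers, 228132 matched GENCODE release M21, and exons of those gene classes were kept, 22835 genes in all. Reads were recovered as RPKM times exon length and a depth that was searched from the values themselves, and 96.8% to 97.1% of values below 200 reads came out whole within 0.02. For the members' exons a value counted as whole within 0.15. The precision is that of counting alone, and 3 reads on an exon of 150 bp correspond to 0.444 to 0.455 RPKM. Log2 fold changes used a pseudocount of 1 RPKM, which understates low genes. Ratios of reads have exact conditional binomial intervals.

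The members and lists were chosen with earlier results of these data known. The text names every member, the list genes called in any comparison with further list genes for context that were chosen after their values were seen, Mitf, and the 3 nearest profiles of each called member. Comparisons with primary melanocytes were planned and not run, since no column carried a matching name. The alternatives changed the expression and fold thresholds, the pseudocount, the exon that gives the level and the scaling of the libraries. The levels on the most 5′ and most 3′ exons were alternatives added after the data were seen. On simulated reads for Dox (+) against Dox (-), 199 of 200 genes changed 8-fold were called, with 5 false calls among 12997 genes. Both simulated libraries were drawn from the Dox (-) values with counting error alone. They held no differences between cultures or in coverage along transcripts, so these numbers do not give the rate of false calls in the real comparison. Python 3.11.15, pandas 2.3.3, NumPy 2.4.6, SciPy 1.17.1, Biopython 1.88 and matplotlib 3.10.9 were used.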

Additional observations from a re-analysis of the deposited data

How the results depend on the processing

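No paired analysis was possible because each condition had 1 library, and leaving out a replicate was not possible for the same reason. The 3 members called between Dox (+) and Dox (-) were called under each alternative except that Igf1 was not called at a fold threshold of 8 or on its most 5′ exon, an exon with few reads. Of the 5 called between Dox (-) and MEF, Igfbp6 was lost at a fold threshold of 8 and Igf1 on its most 5′ exon. Between Dox (+) and MEF the number called was 5 in place of 3 at a fold threshold of 2, with Igf1 and Igfbp6 added, and 1 on the most 5′ exon, where Igfbp2 alone was called and Igfbp3 and Igfbp5 were under 10 RPKM in both libraries. At a threshold of 30 RPKM Igfbp5 was lost in that comparison. Over the 24 fold changes of the members, 147 alternative values moved by less than the counting error and 69 by more, and the sign of a called value never changed, while uncalled values of Igf1, Igf1r and Igfbp4 in comparisons with MEF changed sign under 1 or 2 alternatives. The log2 fold change of Igf1 between Dox (+) and Dox (-) ranged from -3.26 to -0.37, that of Igfbp3 from -3.81 to -2.97 and that of Igfbp5 from -4.03 to -3.41. Comparisons with primary melanocytes were not run. The number of other IGF axis genes called ranged from 2 to 14 between Dox (+) and Dox (-), from 2 to 16 between Dox (-) and MEF and from 6 to 26 between Dox (+) and MEF, with the extremes at fold thresholds of 8 and 2.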
